A study of Homo sapiens with 16 samples.

Results

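The 10 genes described here encode enzymes of glycolysis, HK2, GPI, PFKP, ALDOA, TPI1, GAPDH, PGK1, ENO1, PKM and LDHA. They were taken by name from a list of 10 out of 60107 Ensembl genes, and all 10 were found in the count tables of the 16 libraries. ALDOA entered the list because its level fell deepest under induction among the 5′ terminal oligopyrimidine (TOP) mRNAs that the study lists as downregulated. The study took TOP mRNAs from a published set defined by recovery with the protein LARP1. Its 116 listed TOP mRNAs are only those that fell in this same comparison, so ranks among them do not cover all TOP mRNAs. The other enzymes were added from other steps of ALDOA's pathway with the same comparison already known. The phosphoglycerate mutase step has no member. The values of the 10 genes in that comparison are therefore a description. Calls at a threshold are printed for them below, but no test can be read from these calls, since the list was made with that comparison known.

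Glycolysis is the cytosolic chain of reactions that turns glucose into pyruvate and yields ATP and NADH, and lactate dehydrogenase regenerates the NAD+ that the chain consumes. Its upper part uses ATP to prepare and cleave the sugar, and its lower part recovers ATP from the triose phosphates. Tumor cell lines such as osteosarcoma lines commonly run this pathway at a high rate, and its mRNAs are among the abundant mRNAs of many cultured cells. A TOP sequence is a run of pyrimidines directly at the cap of an mRNA, and it is best known from mRNAs of the translation machinery.

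The cells were U2OS-TR, which is U2OS, an osteosarcoma line of human origin, with a stable tetracycline repressor. The transgene line was 1 clone of U2OS-TR with an integrated, tetracycline-regulated ΔN-RNMT, an inactive form of the cap methyltransferase RNMT that stays in the cytoplasm, driven by a CMV promoter with tetracycline operators and selected in G418. There were 5 Control libraries, from transgene cells without doxycycline, and 5 Induced libraries, from the same clone given doxycycline at 1 μg/ml from 48 h after plating and collected 24 h later. The parental U2OS-TR line, without the transgene, gave 3 No Dox and 3 With Dox libraries on the same schedule. The parental libraries were sequenced elsewhere, on another instrument and with other read lengths, so line and facility cannot be told apart. The treatments follow the study's methods, whereas the sample protocol lists the doxycycline dose for every library. All libraries were made from polyadenylated cytoplasmic RNA and count 1 tag at the 3′ end of an mRNA, so levels are given as TMM-scaled counts per mega-count of gene tags (CPM) and are not divided by gene length. The comparison asks which cytoplasmic mRNAs change in level when cap methylation in the cytoplasm is blocked. Less of an mRNA in every cell and fewer cells that carry it cannot be told apart in such bulk samples.

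Transgene libraries held between 12527183 and 23251834 gene tags and parental libraries between 1473286 and 3214808. RNMT tags may come from the transgene as well as from the endogenous gene, and their origin was not measured. RNMT lay between 55.6 and 112 CPM in Control and between 266 and 458 CPM in Induced libraries, so each library followed its label. Of the Control libraries replicate 5 had the highest RNMT level, and several enzymes below placed it nearest to the Induced group. Induced replicate 2 lay nearest to the Control group for the same enzymes at 360 CPM of RNMT. Values without these 2 libraries are given beside the main ones. Of 9 osteoblast lineage markers, 3 were above 1 CPM in the groups of the transgene line and 4 in the parental groups, with sums between 202 and 993 CPM per library, and the defining markers SP7 and BGLAP were at 0 in every library. Of the other cell type lists, all 4 mesenchymal markers were detected in every group, and the summed leukocyte markers never passed 0.761 CPM. Of 5 epithelial markers, 2 were above 1 CPM in the Induced group and 1 in each other group. Their sums lay between 3.05 and 16.9 CPM per library.

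Because ALDOA is listed as a TOP mRNA, the DNA around the annotated start of 5 members is shown for the pyrimidine runs it holds. Each line gives 30 bases of GRCh38, the 10 before the start of the canonical GENCODE transcript and the 20 from it, read along the gene's strand, with the longest run of C and T in capitals, and every run of that length where there are several. The first 3 are the members with a run of 6 or more, and LDHA and PGK1 are shown as members whose level differed little between the groups.
ALDOA, chr16:30065750-30065779, plus strand: CCTTCCgcctgcccgCCTCCTgcgccgccc
GAPDH, chr12:6534507-6534536, plus strand: ctcccgcttcgctctctgCTCCTCCTgttc
PKM, chr15:72231171-72231200, minus strand: gtggCTCCTTgcacagcagctgcacgcgcc
LDHA, chr11:18394553-18394582, plus strand: ccagCTCagagtgctgcagccgctgccgcc
PGK1, chrX:78104238-78104267, plus strand: cccgcgcggtgTTCCgcaTTCTgcaagcct

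The longest run had 8 bases in GAPDH, 6 in ALDOA and PKM, 4 in PGK1 and 3 in LDHA. In PKM it lay before the annotated start, and in GAPDH it began 8 bases past it. ALDOA had 2 runs of that length, 1 before the start and 1 that began 5 bases past it, and PGK1 also had 2. Of the members not shown, PFKP and TPI1 had a longest run of 5 bases, GPI and HK2 of 4 and ENO1 of 3. Their log2 fold changes under induction were −1.02, −0.66, −0.85, 0.29 and −0.46, so the 5 shown do not stand for all 10 members. Whether run length goes with the change was not tested. A run of 6 or more was found in 3 of the 10 members and in 27.8% of the tested genes with a window. It was found in 54.3% of the 116 TOP mRNAs listed as downregulated. These are letters around an annotated start, and the start that these cells use was not measured here. The promoter of each member, 250 bases before to 50 bases after that start, was also searched on both strands for ACGTG, the core letters of the hypoxia response element. It was present in 6 of the 10 members and in 26.4% of all tested genes, with 5 matches in LDHA, 3 in PGK1, 2 in HK2 and 1 each in PFKP, ALDOA and GAPDH. LDHA holds 2 copies of the palindrome CACGTG, and each counts once for each strand, so its 5 matches lie at fewer sites.

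ALDOA, the main aldolase of most tissues, cleaves fructose 1,6-bisphosphate into the triose phosphates. Its level in the Control libraries was 482, 506, 711, 373 and 225 CPM for replicates 1 to 5. In the Induced libraries it was 143, 244, 157, 140 and 153 CPM. Control replicates 1 to 4 were above every Induced library, and Control replicate 5 lay below Induced replicate 2, so the groups overlapped by this 1 pair. The mean went from 459 ± 179 CPM (SD, n = 5) to 167 ± 43.4 CPM (SD, n = 5), a log2 fold change of −1.46 (standard error 0.28). Without Control 5 and Induced 2, the log2 fold change was −1.80 (standard error 0.18). Among 13038 tested genes ALDOA had the 32nd lowest log2 fold change. Among the listed TOP mRNAs the next lowest, ATP6V1F, a subunit of the vacuolar proton pump, was at −1.45 (standard error 0.32), a distance far within the standard errors. GAPDH was the 8th in that list.

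GAPDH oxidizes glyceraldehyde 3-phosphate and is widely used as a reference gene. It held 5806, 6317, 11445, 5174 and 2843 CPM in the Control replicates and 2661, 3354, 2749, 2180 and 2237 CPM in the Induced ones. Control replicate 3 had more than 4 times the level of Control replicate 5, and the latter lay inside the Induced range. The log2 fold change was −1.26 (standard error 0.31), and −0.96 without Control replicate 3. GAPDH has 65 annotated pseudogenes and tags that aligned to more than 1 place were left out, so its counts may miss part of its mRNA. With these counts it still supplied between 45.8% and 72.0% of the tags of all 10 genes in a transgene library.

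PKM makes pyruvate in the last ATP-yielding step. It was at 476, 507, 783, 414 and 237 CPM in Control and at 186, 272, 250, 198 and 233 CPM in Induced libraries, with Control 3 at the top and Control 5 inside the Induced range. The log2 fold change was −1.08 (standard error 0.27). PFKP, the platelet-type phosphofructokinase of the committed step, went from 52.8 ± 19.9 CPM to 26.1 ± 5.34 CPM (SD, n = 5 each), a log2 fold change of −1.02 (standard error 0.26). An unnamed non-coding gene overlaps PFKP on the same strand, so some tags may not be its own. GPI, ALDOA, PGK1, ENO1 and LDHA also overlap other annotated genes on their strand, and how many of their tags this concerns was not measured.

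GPI, the isomerase that makes fructose 6-phosphate, held 281, 276, 349, 234 and 167 CPM in Control cells and 123, 193, 136, 133 and 140 CPM in Induced cells. Its log2 fold change was −0.85 (standard error 0.21). The triose phosphate isomerase TPI1 was less spread in the Control group, at 1057, 1108, 1000, 946 and 740 CPM, and had 495, 879, 522, 537 and 641 CPM in the Induced group. Control replicate 5 and Induced replicate 2 were again the pair that crossed. The log2 fold change of TPI1 was −0.66 (standard error 0.19).

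**Figure D1:**
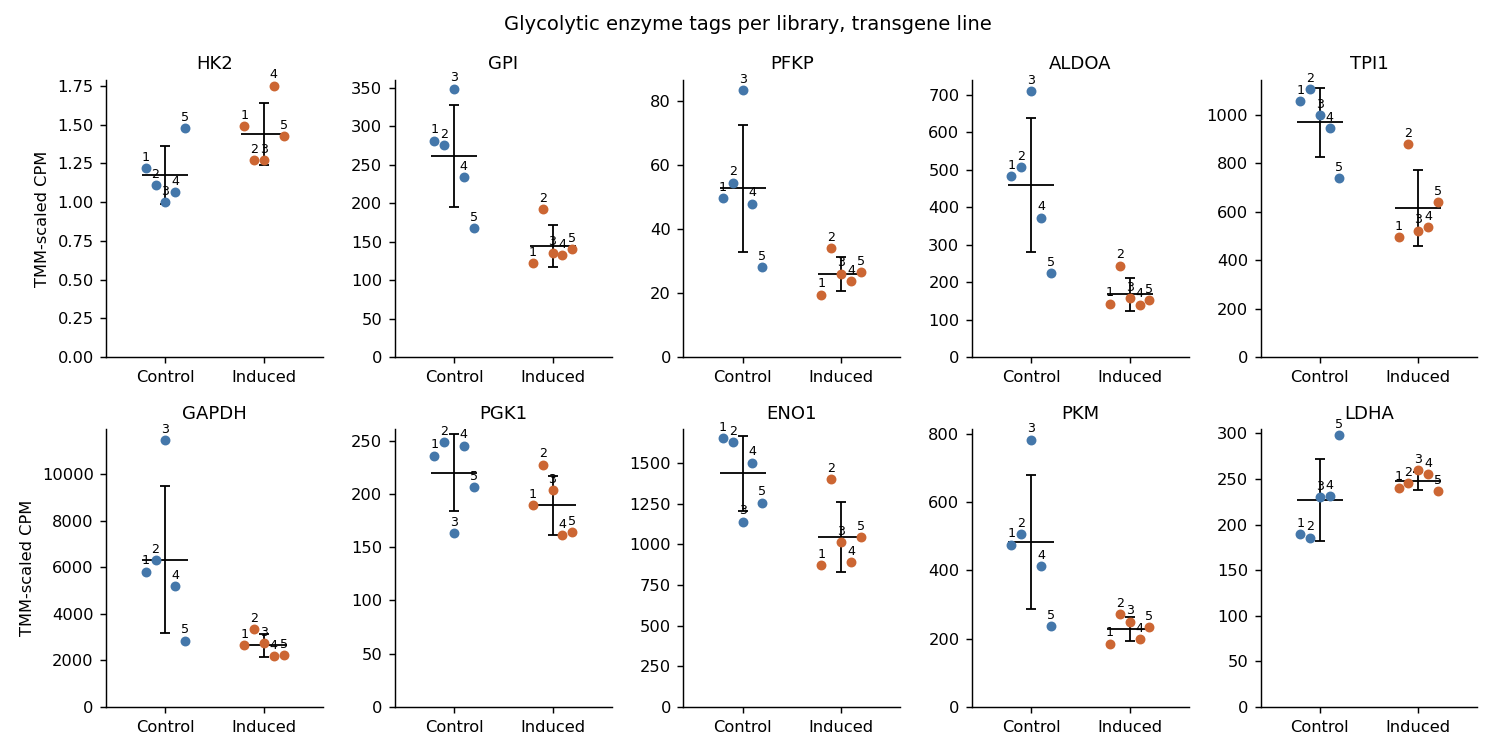
TMM-scaled CPM of the 10 enzymes in the transgene line, with 1 point and replicate number per library, group means as horizontal lines and bars of 1 SD (n = 5). In ALDOA, GAPDH, PKM, PFKP and GPI, Control 3 is the highest library and Control 5 the lowest Control library, and Induced 2 is the highest Induced library.

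The other enzymes of the lower part showed smaller differences. ENO1, the enolase that makes phosphoenolpyruvate, held 1655, 1631, 1141, 1504 and 1258 CPM in Control and 872, 1403, 1013, 891 and 1047 CPM in Induced libraries. Its log2 fold change was −0.46 (standard error 0.18). Here Control 3 was the lowest Control library, unlike in ALDOA or GAPDH. PGK1, which makes ATP directly after the GAPDH step, went from 220 ± 35.9 to 189 ± 27.7 CPM (SD, n = 5 each), a log2 fold change of −0.22 (standard error 0.16). LDHA, which reduces pyruvate to lactate, was at 227 ± 45.4 and 248 ± 9.62 CPM (SD, n = 5 each), a log2 fold change of 0.13 (standard error 0.15). The Induced libraries of LDHA spanned only 237 to 260 CPM, and its highest library was Control replicate 5 at 298 CPM. HK2, an inducible hexokinase, was barely detected, with 18 to 34 tags in a Control library and 20 to 38 in an Induced one. Its log2 fold change was 0.29 (standard error 0.21).

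Genes were called at an adjusted P under 0.05 (edgeR, quasi-likelihood F test, Benjamini-Hochberg). At that threshold, 6 of the 10 members were lower in Induced cells and 0 were higher. They were ALDOA, GAPDH, PKM, PFKP, GPI and TPI1. Of the 13038 genes tested, 39.8% passed, 19.8% as lower and 20.0% as higher. Since the members were chosen from this comparison, nothing is read from their count. The median log2 fold change of the 10 members was −0.75 and that of all tested genes 0.04. No member had Control and Induced libraries without overlap, whereas 4.22% of tested genes were lower and 3.08% higher without overlap. Without Control 5 and Induced 2, which were left out because they lay nearest to the other group, 7 members passed, the additional one being ENO1. A larger count follows from such a choice, and it is given only to show how far these libraries carry the values. Together the 10 enzymes took 0.944 ± 0.268% of the gene tags in Control and 0.572 ± 0.0760% in Induced libraries (SD, n = 5 each). Without GAPDH their share was 0.376 ± 0.0381% and 0.288 ± 0.0446% (SD, n = 5 each).

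The spread within the groups followed a common order among some of the members. Over the 10 transgene libraries, Pearson's r of log2 CPM with ALDOA was 0.995 for GPI, 0.976 for PFKP, 0.974 for PKM, 0.972 for GAPDH and 0.923 for TPI1. It was 0.73 for ENO1, 0.39 for PGK1, −0.62 for LDHA and −0.85 for HK2. After each library's value was taken relative to its group mean, r with ALDOA was 0.989 for GPI and 0.953 for PFKP, but 0.346 for ENO1 and 0.0148 for PGK1. ENO1 and PGK1 had an r of 0.794 with each other on this scale, and PKM and PFKP one of 0.977. These correlations share libraries, scaling and depth and are a description. The genes with the highest r to ALDOA of all 13038 were GATD1, MRPL11, TUBB6, SIVA1 and THOP1, from 0.998 down to 0.996, and GPI was the 11th. Of these, MRPL11 is a mitochondrial ribosomal protein, TUBB6 a beta-tubulin and THOP1 a metallopeptidase.

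The members with low values under induction were also the GC-rich ones. Among all tested genes, the median log2 fold change went from 0.45 in the fifth with the lowest GC content of the canonical transcript to −0.48 in the fifth with the highest, and r between both measures was −0.37. Across the 10 members r was −0.82, from LDHA and PGK1 at 41.8% and 42.8% GC to ALDOA at 60.5%. When the fit took GC content into account as an offset for each library, the log2 fold change of ALDOA was −1.001, of GAPDH −0.94, of PKM −0.75, of GPI −0.68 and of PFKP −0.65. TPI1 moved to −0.45 and no longer passed the threshold, while the other 5 did, as did 3322 of all tested genes. As the members were chosen with this comparison known, these calls are no test of them. LDHA moved to −0.16 and thereby changed sign, PGK1 moved to −0.47, and HK2 was at 0.35. With 1 surrogate variable, estimated from the counts of all genes, ALDOA was at −0.72, no member passed, and 1 of all tested genes did. The part of GC content and of the common axis in the values of the members was not tested.

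**Figure D2:**
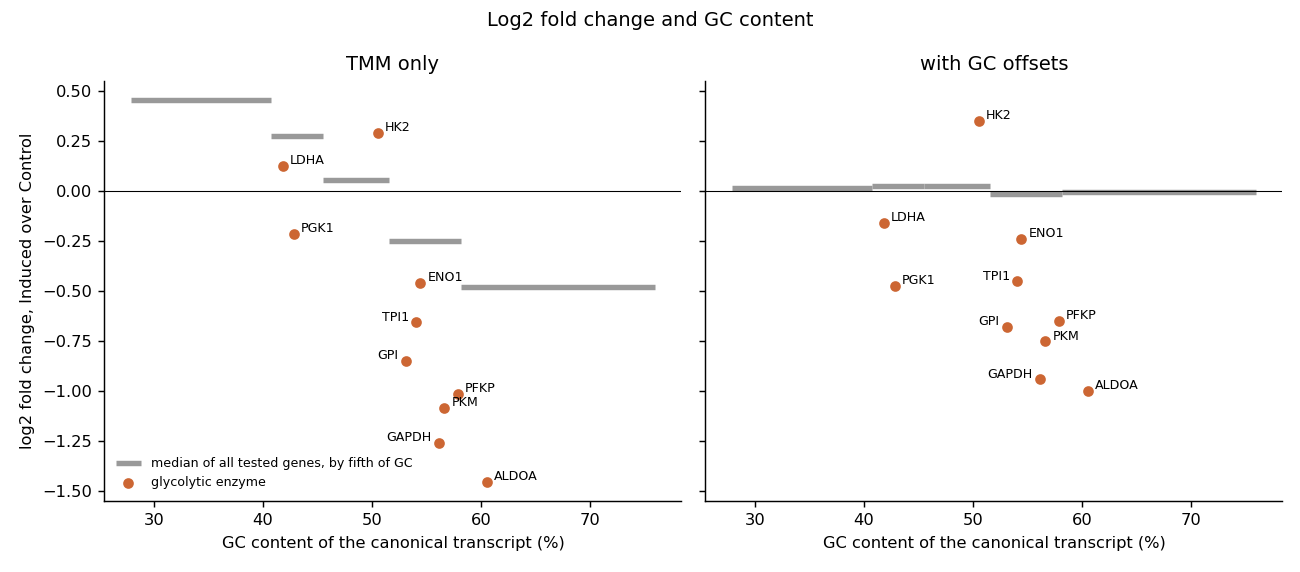
Log2 fold change of the 10 enzymes, Induced over Control (vertical axis), against the GC content of their canonical transcripts in percent (horizontal axis), without and with GC offsets. Gray bars are medians of all tested genes in 5 bins of GC content with equal numbers of genes, which run from 0.45 to −0.48 on the left and lie near 0 on the right, where ALDOA is at −1.001 and GAPDH at −0.94.

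Because several genes can serve 1 step, the tags of each step were divided among its isoenzymes. The phosphofructokinase step differed most. PFKM, the muscle-type enzyme, supplied 4.48, 3.33, 3.69, 4.90 and 24.4% of phosphofructokinase tags in Control and 36.2, 12.3, 31.3, 35.1 and 33.1% in Induced replicates 1 to 5. Control 5 and Induced 2 were thus again nearest to the other group. PFKM, which is not a member, rose by 1.46 on the log2 scale (adjusted P = 0.0237 from edgeR, standard error 0.43), and PFKL, the liver-type enzyme, fell by 1.10 (adjusted P = 0.0182 from edgeR, standard error 0.28). The share of PFKP went from 45.5 ± 4.35% to 35.9 ± 4.26% (SD, n = 5 each). ALDOA supplied 98.3% of aldolase tags in Control and 97.3% in Induced libraries, ENO1 93.9% and 94.8% of enolase tags, and PGK1 and PKM all tags of their steps. LDHA gave 40.7 ± 3.77% and 37.4 ± 4.44% of lactate dehydrogenase tags (SD, n = 5 each), most of the rest being LDHB. HK2 gave 0.358% and 0.716% of hexokinase tags, nearly all of which belonged to HK1.

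**Figure D3:**
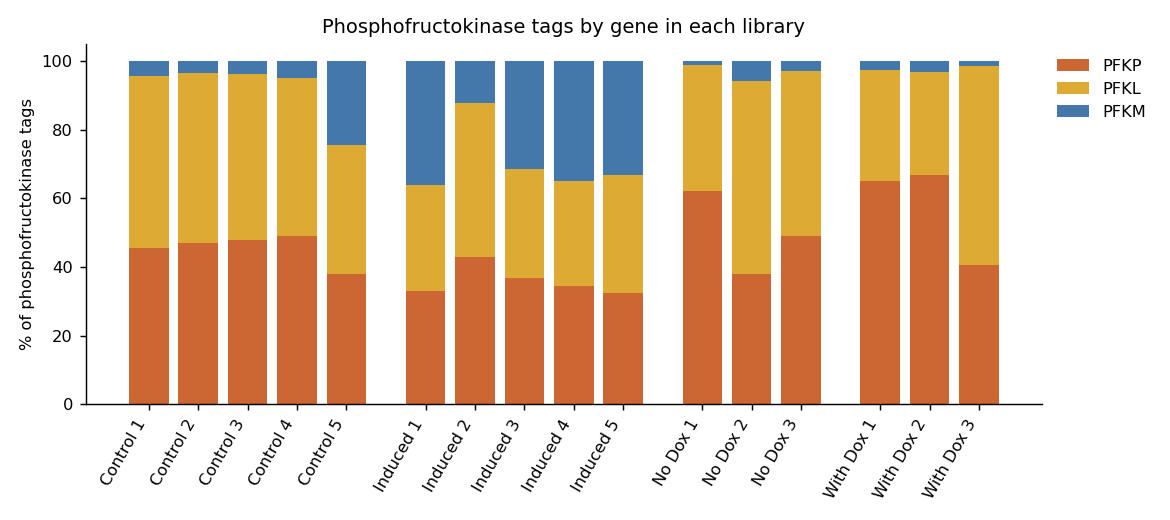
Share of phosphofructokinase tags (percent, vertical axis) that each library held for PFKP, PFKL and PFKM, as stacked bars for all 16 libraries. PFKM is 3.33 to 4.90% in Control 1 to 4, 24.4% in Control 5, 12.3% in Induced 2, 31.3 to 36.2% in the other Induced libraries and at most 5.93% in parental libraries.

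The parental line shows the members under doxycycline without the transgene. Of the 9124 genes tested there, 0% passed the threshold (edgeR, Benjamini-Hochberg), 2.93% had an unadjusted P below 0.05, and DESeq2 called 1 gene. None of the 9 members tested passed, with an adjusted P of 0.997 for each (edgeR). HK2, with 0 to 6 tags in a library, was too low to be tested. The 95% intervals below are wide, at 3 libraries a group and this depth.

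ALDOA was at 604, 434 and 341 CPM in No Dox and at 422, 205 and 1488 CPM in With Dox libraries. With Dox replicate 3 was the highest of all 6 and With Dox replicate 2 the lowest. The log2 fold change was 0.62 (standard error 0.64, 95% interval −0.80 to 2.03), and it turned to −0.61 without With Dox replicate 3. The same library held the highest values of TPI1, with 790, 860 and 368 CPM in No Dox and 434, 303 and 1540 CPM in With Dox libraries. TPI1 had a log2 fold change of 0.17 (95% interval −1.19 to 1.54) and −0.92 without that library. ENO1 had 1095, 2706 and 1103 CPM against 1028, 727 and 3885 CPM, a log2 fold change of 0.20 (95% interval −1.26 to 1.67), and −0.95 without it. GPI was at 0.20 (95% interval −0.81 to 1.21), and at −0.28 without it. With Dox replicate 3 was also the shallowest library, with 1473286 gene tags.

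GAPDH ranged from 1737 to 6585 CPM in No Dox and from 1464 to 3969 CPM in With Dox libraries, with a log2 fold change of −0.34 (95% interval −1.65 to 0.98). PKM was steadier, at 796, 510 and 938 CPM and at 1035, 622 and 912 CPM, a log2 fold change of 0.20 (95% interval −0.74 to 1.13). PFKP had a log2 fold change of 0.42 (95% interval −0.50 to 1.35). Without With Dox replicate 3 the parental log2 fold change of ALDOA was −0.61 with a standard error of 0.46.

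PGK1 was the member without overlap between the parental groups, with 89.2, 291 and 224 CPM in No Dox and 343, 338 and 363 CPM in With Dox libraries. Such a separation was found in 4.87% of tested genes upward and in 4.66% downward. Its log2 fold change of 0.79 (standard error 0.46) had an adjusted P of 0.997 in edgeR. LDHA was at 224, 347 and 381 CPM and at 557, 588 and 224 CPM, a log2 fold change of 0.52 (95% interval −0.49 to 1.54). With Dox replicate 3 was here the lowest library, opposite to its place in ALDOA, TPI1 and ENO1.

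**Figure D4:**
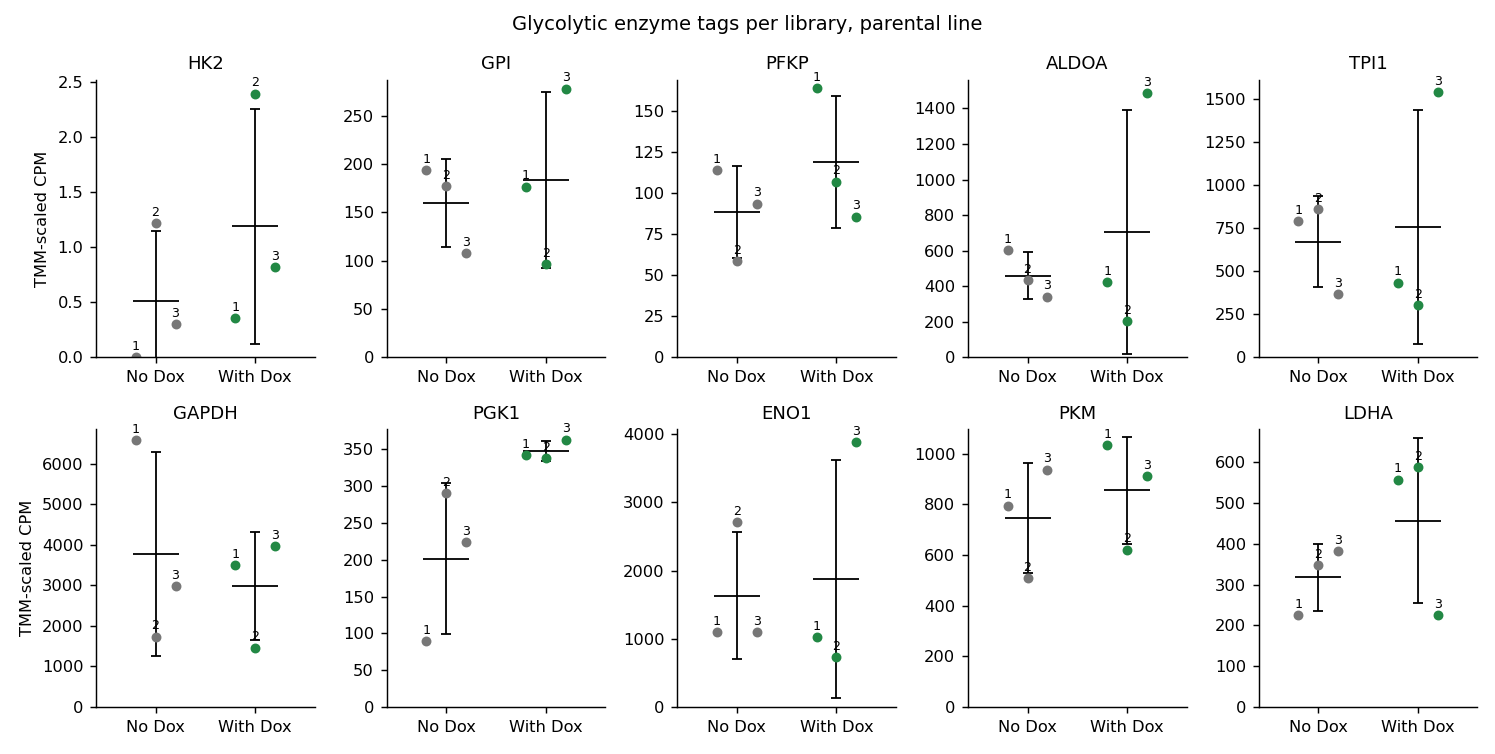
TMM-scaled CPM of the 10 enzymes in the parental line, with 1 point and replicate number per library, group means as horizontal lines and bars of 1 SD (n = 3). With Dox 3 is the highest library in ALDOA (1488 CPM), TPI1 (1540 CPM) and ENO1 (3885 CPM), and the 3 With Dox libraries of PGK1 lie above the No Dox ones.

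A joint fit of all 16 libraries gave the log2 fold change in the transgene line minus that in the parental line. It was −2.34 (standard error 0.72) for ALDOA, −1.67 (0.48) for PFKP, −1.52 (0.48) for PKM and −0.60 (0.39) for LDHA. Since this fit scaled all libraries together, these are not the plain differences of the values given above for each line. The difference was negative for all 9 members tested, with a median of −1.23 against −0.09 for the 12265 genes tested. This difference contains the comparison from which the members came and is given without a test. Of all genes tested, 2.98% passed in it. With 1 library left out, the difference for ALDOA lay between −2.60 and −1.11, the latter without With Dox replicate 3, and with 1 surrogate variable it was −0.94. For TPI1 and ENO1 it turned positive, to 0.01 and 0.24, without With Dox replicate 3.

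**Figure D5:**
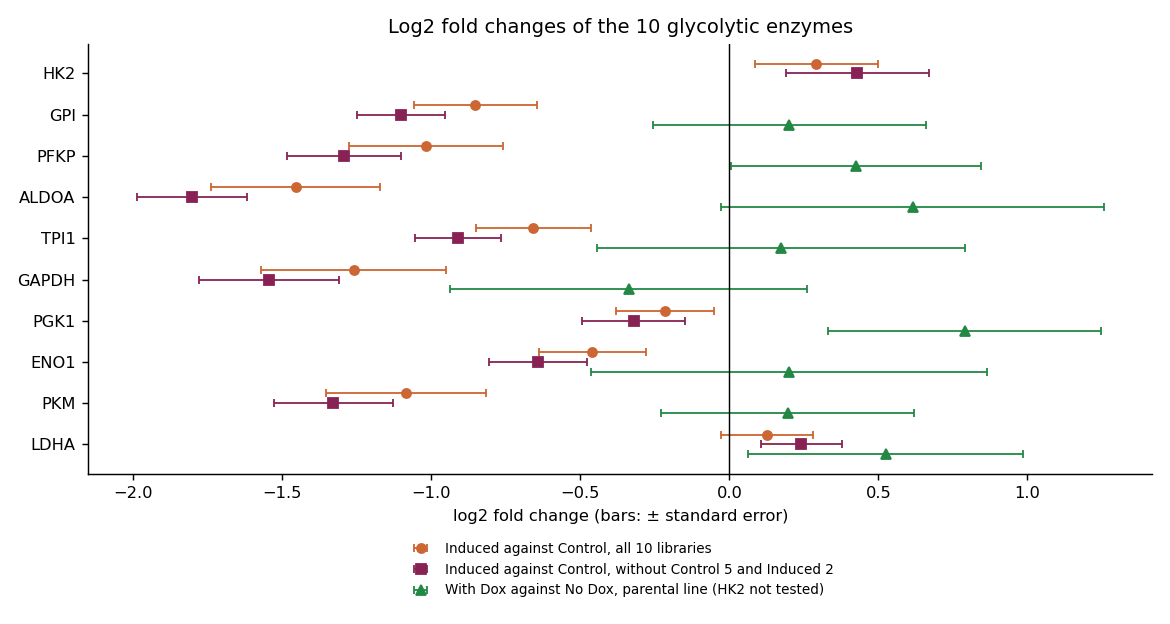
Log2 fold change (horizontal axis) with its standard error for each enzyme, in the transgene line with all 10 libraries, in the transgene line without Control 5 and Induced 2, and in the parental line. ALDOA lies at −1.46, −1.80 and 0.62, and the bars of the parental line are the longest for each of the 9 enzymes tested there.

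Cells without doxycycline were also compared between the lines. The values are a description from which no test is read, since the Control libraries also entered the comparison from which the members came. GPI was at 167 to 349 CPM in Control and at 108, 177 and 194 CPM in No Dox libraries in the scaling of each line, and the log2 difference in the joint scaling of both lines was 0.99 (standard error 0.30). TPI1 was at 0.80 (standard error 0.32) and GAPDH at 1.03 (standard error 0.51). The log2 differences of the other members lay between −0.48 for PFKP and 0.38 for PGK1. Of the 9 members tested, 1, GPI, was past the threshold, and it was not past it in 6 of 17 alternatives, among them those without Control 1, Control 2 or No Dox 3. Of 12325 genes 38.6% passed in this comparison, 15.8% as higher and 22.9% as lower, and nothing is read from the members' count. The effects of line, clone, facility and instrument cannot be told apart here. The parental libraries also had between 1.11 and 1.497 tags outside genes for each tag on a gene, against 0.0744 to 0.106 in the transgene libraries.

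The rest of the pathway, 160 genes in 12 lists that share no gene with the 10 members, went both ways under induction. Of 131 tested, 25 fell and 31 rose (edgeR, Benjamini-Hochberg), with a median log2 fold change of 0.08 against 0.04 for all genes. These are shares of 19.1% and 23.7%, beside the 19.8% and 20.0% of all tested genes that fell and rose, and with 1 surrogate variable 0 fell and 0 rose. The counts for single lists that follow are descriptions to be read against the same shares. Leaving out 1 library at a time gave between 6 and 37 that fell and between 7 and 48 that rose, the fewest without Induced replicate 1 (for those that rose also without Control 2 or Induced 4) and the most without Control replicate 5. Without both Control 5 and Induced 2, 38 fell and 51 rose.

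Of the other isoenzymes, 12 of 24 were tested, 4 fell and 2 rose. Beside PFKL, the ones that fell were HK1 (log2 fold change −0.74), the hexokinase of most tissues, and the enolases ENO3 (−0.79) and ENO2 (−0.54). The testis-type LDHC rose by 2.46, from between 0.508 and 3.60 CPM in Control libraries to between 0.706 and 11.04 CPM in Induced ones. ALDOC (−0.64, adjusted P = 0.0614, edgeR), PGAM1 (1.19, adjusted P = 0.136) and LDHB (0.35, adjusted P = 0.109) did not pass. PGAM1 is a phosphoglycerate mutase, so it is in this list without being an isoenzyme of a member. Neither did HKDC1 (1.45, adjusted P = 0.0736, edgeR), ADPGK (0.31, adjusted P = 0.311) and BPGM (0.36, adjusted P = 0.319). In glucose and lactate transport, 12 of 13 were tested, with 2 that fell and 3 that rose. The lactate exporter SLC16A3 (−1.10) and the glucose carrier SLC2A8 (−1.36) fell. EMB (1.74), a chaperone of lactate carriers, SLC2A12 (1.14) and SLC16A7 (0.93) rose. SLC2A1, the common glucose carrier, was at 0.56 (adjusted P = 0.0737, edgeR).

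Of 10 tested regulators of flux, PDK3 (−0.65) fell and TIGAR (1.70), which lowers fructose 2,6-bisphosphate, and PDK4 (0.55) rose. Of 8 genes for pyruvate entry into mitochondria, DLAT (0.98) and MPC2 (0.72) rose. In the pentose phosphate pathway 3 of 8 tested fell and 0 rose, namely TKT (−0.96), PGD (−1.04) and TALDO1 (−0.44). Gluconeogenesis had 3 tested genes, of which SLC37A4 (−0.77) fell. In glycogen metabolism, with 11 genes tested, GYS1 (−0.97), the glycogen synthase, fell, and GBE1 (1.41), the branching enzyme, was among those that rose. The fructose, mannose, hexosamine and glycerol branches had 16 tested genes, with 3 that fell, GALT (−0.75), PMM1 (−0.96) and KHK (−0.74), and 3 that rose, GFPT1 (0.94), UAP1 (0.90) and GNPNAT1 (0.50). In the serine branch SHMT2 (−0.44) fell and SHMT1 (1.60) rose among 5.

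In the citric acid cycle 4 of 21 fell, among them IDH3G (−0.75), CS (−0.44) and IDH3B (−0.60), and 8 rose, those with the lowest P being SDHD (2.74), SUCLG2 (2.01) and IDH1 (1.05). Of 8 genes of the hypoxia-inducible factors and their regulators, EGLN2 (−0.53) and HIF1AN (−0.49) fell and ARNT (1.58) rose, and HIF1A was at 0.05. Of 17 tested targets of these factors outside glycolysis, 3 fell, namely ADM (−1.05), BNIP3 (−0.49) and CA12 (−0.67). Of the 7 that rose, KDM3A (1.67), INSIG2 (1.40) and ERO1A (0.62) had the lowest P. In the parental line 0 of 111 tested genes of the 12 lists passed.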

How the data were processed

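Members and gene lists were chosen with earlier results of these data known. The authors deposited unnormalized tag counts per Ensembl gene for each of 16 libraries, made with the Lexogen QuantSeq REV pipeline 2.2.3 for GRCh38. Which aligner and annotation release were used, and how strand and duplicate tags were treated, is not given in the sources used here. Each library lists 60107 genes, and 92 spike-in entries and 5 summary entries were left out. Names came from GENCODE release 44, gene starts from its canonical transcripts.

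Genes with a base mean above 20 in the compared libraries were tested in R 4.3.3 with edgeR 4.0.16 (TMM, quasi-likelihood test, Benjamini-Hochberg adjustment over all tested genes, threshold 0.05). Only the groups compared entered each fit, except for the difference between the lines, which used all 16 libraries and an interaction term. The standard error is the size of the log2 fold change divided by the square root of F. The 95% intervals use the t distribution whose degrees of freedom give the P of the test. Values per library for correlations were log2 CPM with a prior count of 2. Alternatives were DESeq2 1.42.0, its size factors, library totals, filterByExpr, tests of unfiltered counts, GC offsets (lowess span 0.5), a block for replicate number, 1 surrogate variable (sva 3.50.0) and each library left out. Fits were tested on simulated data. Leaving out Control 5 and Induced 2 together was added after seeing the data. The labels call the samples replicates. The study calls the transgene libraries biological replicates and says that the parental ones came from triplicate cultures.

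Named were all 10 members, RNMT, the listed TOP mRNA nearest to ALDOA and all tested genes of the list of other isoenzymes. Up to 3 called genes per pathway list and direction by lowest P, and the 5 genes most like ALDOA, were also named. SLC2A1 and HIF1A were added after their values were seen. One result that this rule covers is not reported here.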

Additional observations from a re-analysis of the deposited data

Results flagged for a closer look

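In groups of 5 libraries, chance alone sets about 1 in 20 groups apart by the gap used here, and no cause was tested for those that follow. ALDOA in Induced replicate 2 (244 CPM) and GPI in the same library (193 CPM) lay far above the other Induced libraries. The same library had the lowest Induced share of PFKM among phosphofructokinase tags (12.3%) and the highest of PFKL (44.7%). Control replicate 5 had the highest Control share of PFKM (24.4%) and the highest Control share of HK2 among hexokinase tags (0.637%). Control replicate 3 had the lowest Control share of ENO1 among enolase tags (91.3%).

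For 3 genes of the pathway lists the log2 response differed between the lines (interaction term of the joint edgeR fit of all 16 libraries, Benjamini-Hochberg adjustment). The response in the transgene line minus that in the parental line was −1.46 for CS, citrate synthase (adjusted P = 0.0425, edgeR), −1.85 for MDH1, the cytosolic malate dehydrogenase (adjusted P = 0.0372, edgeR), and −1.51 for P4HA2, a collagen prolyl hydroxylase (adjusted P = 0.04997, edgeR). These 3 were 2.3% of the 129 genes of the lists that were tested, whereas 2.98% of all 12265 genes tested passed. Leaving out 1 library gave between 0 and 2290 such genes.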

How the results depend on the processing

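Of all genes, 5183 passed in Induced against Control, 3322 with GC offsets, 1 with a surrogate variable and 8329 without Control 5 and Induced 2, and between 1869 and 7604 with 1 library left out. Members called lower were 5 to 7 of 10 under every alternative except the surrogate variable (0). As the members were chosen with this comparison known, nothing is read from these counts. Of pathway genes, 10 fell with library totals, 16 with GC offsets and the block, 0 with the surrogate variable, and 38 without the pair. The number that rose was 15 with GC offsets, 0 with the surrogate variable and 51 without the pair. With 1 library left out, 6 to 37 fell and 7 to 48 rose.

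In the parental line DESeq2 called 1 gene, no filter gave 10, and leaving out 1 library gave 0 to 2. Signs turned for TPI1 and ENO1 with library totals (−0.051, −0.020) and with GC offsets and the block (−0.21, −0.089), and for GAPDH with the surrogate variable (0.0087). Left-out libraries gave −0.92 to 0.63 for TPI1, −0.95 to 0.87 for ENO1, −0.66 to 0.41 for GAPDH, −0.61 to 1.13 for ALDOA and −0.28 to 0.57 for GPI.

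In Control against No Dox, GPI was not past the threshold with library totals, GC offsets with or without the block, or without Control 1, Control 2 or No Dox 3. Signs turned with library totals for ALDOA (−0.19), PGK1 (−0.022) and ENO1 (−0.33), with GC offsets for ALDOA (−0.0455), ENO1 (−0.17) and LDHA (0.013), and with GC offsets and the block for ENO1 (−0.012). ENO1 lay between −0.17 and 0.68 with 1 library left out.

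The count of genes whose response differed between lines was 365, 1489 with DESeq2, 236 with its size factors, 3 with filterByExpr, 150 with no filter, 834 with the surrogate variable and 0 to 2290 with 1 library left out.

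In the transgene line, deviations of same-numbered libraries had a mean r of 0.0260 (−0.373 to 0.625), and 1 of 5 fit best with its own number. These 5 pairs are too few to decide whether same-numbered libraries belong together, so the main fits used no pairing. With the replicate number as a block, 5188 genes passed in Induced against Control and 222 in the difference between lines, and TPI1 and ENO1 were at −0.19 and −0.061 in the parental line. The causes were not tested. The depth of the parental libraries limits what can be seen there, and HK2 rests on at most 38 tags.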
